A study of Mus musculus with 8 samples.

Results

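The genes described here handle iron in the cell: the transferrin receptor (Tfrc), a transporter that carries iron into the cytosol (Slc11a2), the ferritin chains (Fth1 and Ftl1), the iron exporter (Slc40a1), the iron-regulatory proteins (Aco1 and Ireb2) and heme oxygenase (Hmox1). The set was chosen by function around Tfrc and Hmox1, and those genes were selected on measured values: the study lists Tfrc as lower and Hmox1 as higher in Ind-8 cells than in both other lines on these same arrays. Of the 8 genes, 6 had a probe set, and Ftl1 and Ireb2 had none. The 6 genes gave 7 distinct value profiles, among 15653 named genes and 22523 probe sets in the whole data set.

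The study compared self-renewal states in 3 cloned lines of p53-null mouse fetal fibroblasts, with total RNA of independent preparations on 8 Affymetrix arrays. Ind-8 cells (3 arrays, asymmetric self-renewal) make p53 from a cDNA when zinc turns on its metallothionein promoter. Con-3 cells (3 arrays, symmetric self-renewal, no p53) hold the empty vector. That is how the paper describes them, while the sample labels speak of a congenic parent. tI-3 cells (2 arrays, symmetric self-renewal with p53) descend from Ind-8 and make IMPDH II from a constitutive cDNA. Every culture held 65 µM ZnCl2 for 48 h and puromycin at 5 µg/ml, and the tI-3 medium alone also held G418. Since 1 cloned line stands for each state, states and lines cannot be told apart, and the 2 or 3 arrays of a line limit the precision.

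Most cells take up iron as transferrin bound to the transferrin receptor, which is abundant on dividing cells. Iron released in the endosome reaches the cytosol through Slc11a2, is stored in ferritin or leaves through Slc40a1, and more iron is freed when heme oxygenase opens the heme ring. When iron is scarce, the iron-regulatory proteins bind hairpins in target mRNAs, which stabilizes the Tfrc message and blocks translation of ferritin.

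Values are log2 levels as the authors deposited them, and differences are log2 differences between the means of lines. The label genes were read first. Trp53, the p53 gene, stood at 5.68, 5.87 and 5.80 in Ind-8, 5.21, 5.29 and 5.27 in Con-3, and 5.60 and 5.69 in tI-3. Cdkn1a, a p53 target that arrests the cell cycle, stood at 9.70, 9.70 and 9.59 in Ind-8, 5.73, 5.81 and 6.03 in Con-3, and 7.55 and 7.33 in tI-3. Both p53-carrying lines lay above Con-3 on every array for both genes. Impdh2, the enzyme whose cDNA tI-3 carries, stood at 12.16, 12.19 and 12.22 in Ind-8, 12.51, 12.56 and 12.53 in Con-3, and 12.34 and 12.38 in tI-3. It was thus lowest in Ind-8 and highest in Con-3, with tI-3 between them. The study, citing earlier work, describes IMPDH II as raised in tI-3 against Con-3. This probe set did not show it, at a log2 difference of −0.17. Whether the probe set reads the message of the cDNA was not tested.

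Of 8 fibroblast markers, 7 had a mean above 4.30, the 25th percentile of all probe sets, with Vim the most abundant and Thy1 below it. Summed over the 8 markers, the log2 level was 15.64, 15.75 and 15.73 in Ind-8, 15.34, 15.45 and 15.46 in Con-3, and 15.44 and 15.28 in tI-3. Every marker but Col3a1 and Thy1 had its highest mean in Ind-8. Col3a1 had means of 8.80 in Ind-8, 9.07 in Con-3 and 6.38 in tI-3, and Thy1 had 3.88, 4.19 and 4.56. Col1a1 had 12.34, 11.91 and 10.85 in the same order, so single markers in tI-3 lay far from Con-3 where the sum did not. The same sum over 5 erythroid markers was 7.26, 7.27 and 7.49 in Ind-8, 7.51, 7.55 and 7.76 in Con-3, and 7.56 and 7.84 in tI-3, with Epor the most abundant and Gata1 and Alas2 among those below the 25th percentile. Over 4 endothelial markers it was 6.72, 6.58 and 6.72 in Ind-8, 6.89, 6.85 and 7.01 in Con-3, and 7.15 and 7.26 in tI-3, with Kdr the most abundant and Pecam1, Cdh5 and Tek below. These 3 sums set all Ind-8 arrays apart from the others, as Tfrc and Hmox1 do, and their part in the results was not tested. The sum over 5 macrophage markers, with Csf1r the most abundant and Ptprc, Adgre1 and Itgam below the 25th percentile, was 6.72, 6.65 and 6.75 in Ind-8, 6.65, 6.83 and 6.88 in Con-3, and 6.93 and 7.02 in tI-3. Over 5 epithelial markers, with Cldn4 the most abundant and Cdh1, Epcam and Krt18 below, it was 6.69, 6.57 and 6.65 in Ind-8, 6.49, 6.63 and 6.60 in Con-3, and 6.75 and 6.88 in tI-3. Both sums overlapped between Ind-8 and Con-3 and were highest in tI-3, and their part in the results was not tested either.

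The arrays differed in quality measures. On Con-3 replicate 3 the control probe set for the 3′ part of 18S ribosomal RNA read 11.38, against 6.59 to 7.67 on the other arrays. The mean of 14 hybridization controls was 9.04, 8.98 and 9.03 in Ind-8, 9.05, 9.16 and 9.62 in Con-3, and 9.43 and 9.71 in tI-3, so it was high on Con-3 replicate 3 and on both tI-3 arrays. The 25th percentile of an array was 4.19 to 4.25 in Ind-8, 4.23 to 4.38 in Con-3, and 4.39 and 4.43 in tI-3, the highest values. The log2 differences from Con-3 of the iron handling genes, and of the genes of a wider list described singly, are therefore given with and without replicate 3. Those of the transferrin receptor controls and the calls sorted by role are given with all arrays.

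Tfrc brings transferrin-bound iron into the cell and lies on chromosome 16 from 32608896 to 32632794 (GRCm38.p6). Its 250 bases upstream of the start, chr16:32608646-32608895 on the plus strand from RefSeq, are shown because the values of this gene open the comparison and these are letters in which motifs were sought:
Tfrc upstream: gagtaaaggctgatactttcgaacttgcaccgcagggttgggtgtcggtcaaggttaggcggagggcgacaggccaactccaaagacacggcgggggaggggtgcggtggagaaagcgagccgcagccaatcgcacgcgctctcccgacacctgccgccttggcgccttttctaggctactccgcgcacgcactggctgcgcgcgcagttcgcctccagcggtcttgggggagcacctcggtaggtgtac
No capitals mark a motif, since no motif searched was in it. The motifs were the E-box (CACGTG), the core of the antioxidant response element (TGACNNNGC), the p53 half-site, all on both strands and none overlapping another in these windows, and, on the transcript strand of the first 50 transcribed bases, the loop of an iron response element (CAGTG with a C 6 bases before it). Tfrc, Fth1, Ftl1, Ireb2 and Aco1 had 7 windows of 300 bases between them, and none of the 4 motifs occurred in any. Of 32851 promoter windows of that length, 7.15% held the E-box, 12.4% the antioxidant core, 8.36% the p53 half-site and 1.58% the hairpin loop. Hmox1, Slc40a1 and Slc11a2 had no window. An absent match says only that these letters are not in the window. The message beyond its first 50 transcribed bases was not searched for the hairpin loop. Its absence here therefore says nothing about the rest of the Tfrc or ferritin messages.

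Tfrc stood at 7.13, 7.51 and 7.90 in Ind-8, at 9.10, 8.34 and 8.76 in Con-3, and at 8.82 and 8.75 in tI-3. All 3 Ind-8 arrays were lower than every other array, and the tI-3 values fell inside the Con-3 range. The level was 7.51 ± 0.39 (SD, n = 3) in Ind-8, 8.74 ± 0.38 (SD, n = 3) in Con-3 and 8.79 ± 0.04 (SD, n = 2) in tI-3. Ind-8 was therefore 2.33-fold below Con-3, a log2 difference of −1.22 with a limma SE of 0.21. Against tI-3 it was 2.42-fold below, a log2 difference of −1.27 with an SE of 0.24. Both differences are larger than the spread between replicates, but they are the values that chose the gene and carry no test. In RNA from whole cultures, fewer cells of a type and less RNA per cell cannot be told apart.

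The remaining comparison, tI-3 with Con-3, was not among those whose calls the study intersected, but the study defined such genes as alike in these lines, so a difference in it is not free of the choice, for Tfrc or for Hmox1. It also uses the same arrays and equals the other 2 differences subtracted from each other. For Tfrc the log2 difference of tI-3 minus Con-3 was 0.05 (95% interval −0.47 to 0.57, limma adjusted p = 0.896), and the arrays of both lines overlapped. Any difference inside that interval remains possible with these arrays. Without Con-3 replicate 3, Tfrc differed by −1.21 between Ind-8 and Con-3 and by 0.07 between tI-3 and Con-3 (limma adjusted p = 0.883). Over all 8 fits that each left out 1 array, the tI-3 minus Con-3 difference ran from −0.15 to 0.23, with adjusted p from 0.514 to 0.977.

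**Figure D1:**
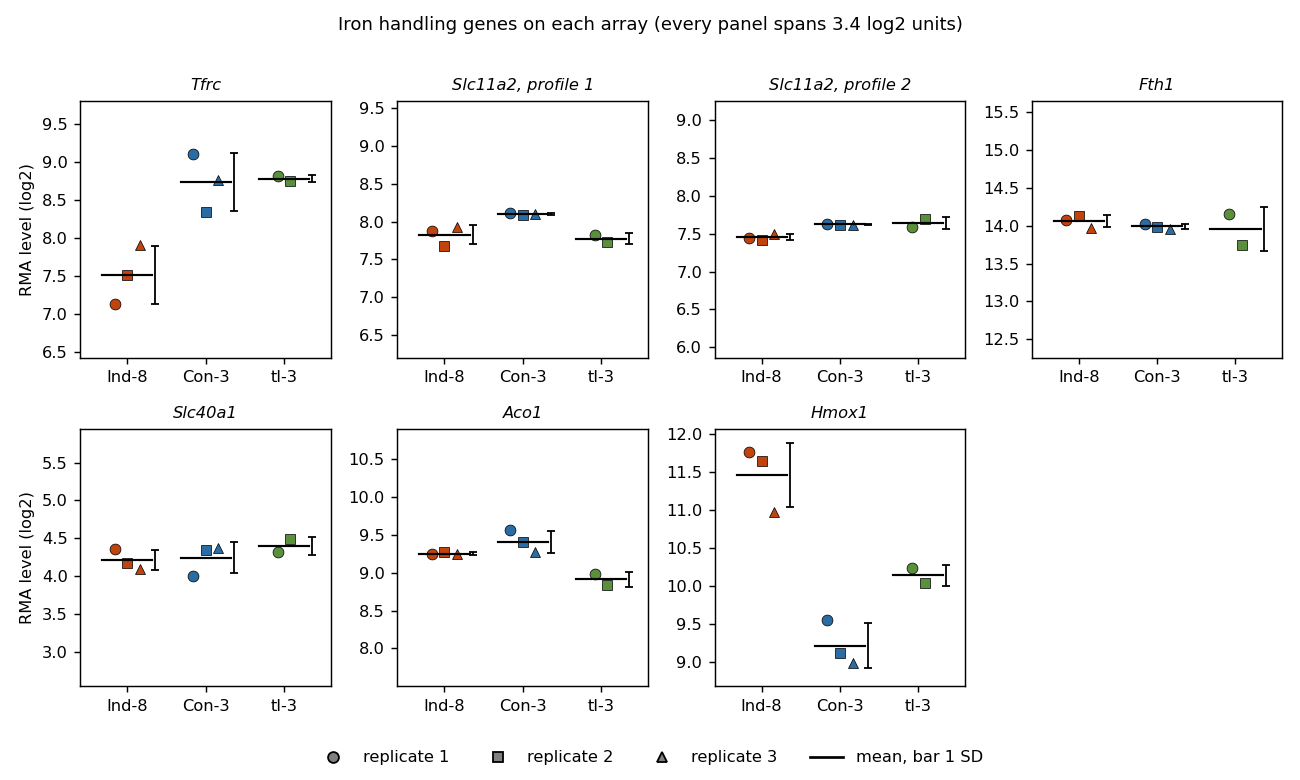
Log2 level (vertical axis, each panel spanning 3.4 log2 units around its own middle) of each iron handling gene in Ind-8, Con-3 and tI-3; symbols are arrays by replicate number, lines are means and bars are 1 SD. Tfrc lies at 7.13 to 7.90 in Ind-8 and at 8.34 to 9.10 elsewhere, Hmox1 lies at 10.98 to 11.77 in Ind-8 and at 8.98 to 10.24 elsewhere, and in the other panels the means of the lines differ by less.

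The array also carries control probe sets for the 3′ part, the middle and the 5′ part of the transferrin receptor message, which were not among the probe sets tested. The 3′ control read 7.61, 7.92 and 8.28 in Ind-8, 9.46, 8.80 and 9.09 in Con-3, and 9.12 and 9.12 in tI-3. The middle control read 5.80, 6.39 and 6.75 in Ind-8, 7.99, 6.94 and 7.45 in Con-3, and 7.61 and 7.40 in tI-3. The 5′ control read 5.70, 6.53 and 6.92 in Ind-8, 8.45, 7.34 and 8.09 in Con-3, and 8.02 and 7.98 in tI-3. On each of the 3 controls, all Ind-8 arrays were below all others and tI-3 lay within the Con-3 range. The difference of Ind-8 minus Con-3 was −1.18 on the 3′ control, −1.15 on the middle one and −1.57 on the 5′ one. Against tI-3 the differences were −1.18, −1.19 and −1.62 in the same order. These controls measure the same RNA preparations as the Tfrc probe set, so they are no replicate of it.

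The gap between the 3′ and the 5′ controls, a measure of RNA integrity, was compared across the lines. The 3′ minus 5′ gap of the transferrin receptor was 1.90, 1.39 and 1.37 in Ind-8, 1.01, 1.47 and 1.00 in Con-3, and 1.10 and 1.14 in tI-3, so that Ind-8 overlapped Con-3 and lay above tI-3. For actin the gap was 0.192, 0.141 and 0.156 in Ind-8, 0.117, 0.135 and 0.110 in Con-3, and 0.06 and 0.07 in tI-3, with every Ind-8 array above the rest. For Gapdh it was −0.11, −0.20 and −0.21 in Ind-8, −0.21, −0.20 and −0.18 in Con-3, and −0.21 and −0.21 in tI-3, which overlapped. The part of RNA integrity in the Tfrc difference was not tested.

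**Figure D2:**
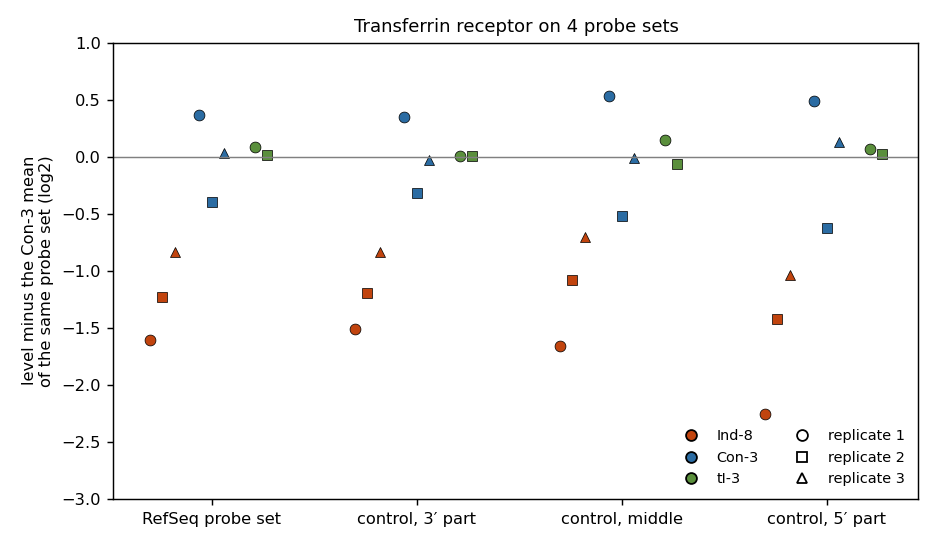
Level minus the Con-3 mean of the same probe set (vertical axis, log2) for the Tfrc probe set and the 3 transferrin receptor controls; each symbol is 1 array, coloured by line and shaped by replicate number. The Ind-8 means lie at −1.22, −1.18, −1.15 and −1.57 from left to right and the tI-3 means at 0.05, 0.00, 0.04 and 0.05.

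Slc11a2, which passes ferrous iron out of the endosome and across the gut epithelium, had 2 value profiles from different transcripts. The first stood at 7.88, 7.68 and 7.92 in Ind-8, 8.12, 8.09 and 8.10 in Con-3, and 7.82 and 7.73 in tI-3. On it the Con-3 arrays were above all others, while Ind-8 and tI-3 overlapped. The second stood at 7.44, 7.42 and 7.50 in Ind-8, 7.63, 7.62 and 7.62 in Con-3, and 7.58 and 7.70 in tI-3. On it the Ind-8 arrays were below all others, while Con-3 and tI-3 overlapped. The first profile differed by −0.27 (SE 0.09) between Ind-8 and Con-3 and by 0.05 (SE 0.10) between Ind-8 and tI-3, the latter turning to −0.13 with the arrays quantile-normalized again and running from 0.003 to 0.12 with 1 array left out. The second differed by −0.17 (SE 0.08) and −0.19 (SE 0.09) in the same comparisons, and the latter became −0.36 with quantile normalization, −0.24 without tI-3 replicate 1 and −0.13 without tI-3 replicate 2.

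In tI-3 against Con-3, the first Slc11a2 profile fell by 0.32 on the log2 scale (95% interval −0.55 to −0.10, limma adjusted p = 0.0414), with both tI-3 arrays under all 3 of Con-3. That call was lost when the arrays were quantile-normalized again (−0.19, adjusted p = 0.216) and with the hybridization controls as a covariate (−0.31, adjusted p = 0.125). It was also lost with the replicate number as a block (−0.30, adjusted p = 0.0582) and without any 1 Con-3 array, any 1 tI-3 array or Ind-8 replicate 1, with −0.32 and adjusted p = 0.0705 without Con-3 replicate 3 and a range of 0.0316 to 0.219 over all alternatives. The second profile differed by 0.02 (95% interval −0.18 to 0.22, limma adjusted p = 0.904), or by 0.16 with quantile normalization and −0.04 without tI-3 replicate 2, and whether the profiles differ from each other was not tested.

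Fth1, the heavy chain of ferritin that oxidizes iron for storage, stood at 14.07, 14.13 and 13.97 in Ind-8, 14.03, 13.99 and 13.96 in Con-3, and 14.16 and 13.75 in tI-3. The lines overlapped in every comparison, and the widest spread lay between the tI-3 arrays. Ind-8 differed by 0.07 (SE 0.11) from Con-3 and by 0.10 (SE 0.12) from tI-3, and the first turned to −0.02 with the hybridization controls as a covariate and ran from 0.03 to 0.11 with 1 array left out. The second turned to −0.10 with quantile normalization, −0.09 with that covariate and −0.10 without tI-3 replicate 2, and became 0.31 without tI-3 replicate 1. Between tI-3 and Con-3 the difference was −0.04 (95% interval −0.31 to 0.24, limma adjusted p = 0.849). It turned to 0.18 with quantile normalization, 0.06 with the covariate and 0.17 without tI-3 replicate 2, and became −0.24 without tI-3 replicate 1, so its direction depended on the alternative.

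Slc40a1, the only known exporter of iron from the cell, stood at 4.36, 4.17 and 4.10 in Ind-8, 4.01, 4.35 and 4.37 in Con-3, and 4.31 and 4.49 in tI-3. The lines overlapped, and the mean over all arrays lay below the 25th percentile of probe sets, where an array shows little signal over background. Ind-8 differed by −0.03 (SE 0.12) from Con-3, which turned to 0.04 without Con-3 replicate 3 and to 0.10 with the hybridization controls as a covariate and became −0.15 without Con-3 replicate 1, and by −0.19 (SE 0.14) from tI-3, which turned to 0.01 with quantile normalization and to 0.09 with that covariate and ran from −0.27 to −0.10 with 1 array left out. The difference of tI-3 minus Con-3 was 0.16 (95% interval −0.14 to 0.46, limma adjusted p = 0.43). It ran from 0.01 with the covariate, 0.04 with quantile normalization, 0.04 without Con-3 replicate 1 and 0.07 without tI-3 replicate 2 to 0.25 without tI-3 replicate 1. No difference in the exporter was detected at this signal, and one inside the 95% interval remains possible.

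Aco1, the cytosolic aconitase that becomes an iron-regulatory protein when it loses its iron-sulfur cluster, stood at 9.24, 9.27 and 9.24 in Ind-8, 9.56, 9.41 and 9.27 in Con-3, and 8.99 and 8.84 in tI-3. Both tI-3 arrays were below all others, while the Ind-8 and Con-3 values met at 9.27. Ind-8 differed by −0.16 (SE 0.10) from Con-3 and by 0.34 (SE 0.11) from tI-3. With the hybridization controls as a covariate the first became −0.27 and the second 0.09, and with quantile normalization the second was 0.21. The first was −0.08 without Con-3 replicate 1. Aco1 fell in tI-3 against Con-3, with a log2 difference of −0.50 (1.41-fold; 95% interval −0.74 to −0.26, limma adjusted p = 0.00737). Without Con-3 replicate 3 the difference was −0.57 (adjusted p = 0.00635). Without tI-3 replicate 2 it was −0.43 and no longer called (adjusted p = 0.0737), in a range of 0.00428 to 0.0737 over all alternatives.

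For the other differences of these 4 genes, leaving out Con-3 replicate 3 changed no direction but that of Slc40a1. Ind-8 minus Con-3 was then −0.27 and −0.17 for the Slc11a2 profiles, 0.05 for Fth1 and −0.23 for Aco1. In the comparison of tI-3 with Con-3 the second Slc11a2 profile gave 0.02, Fth1 −0.05 and Slc40a1 0.22, none of them called by limma (adjusted p = 0.928, 0.808 and 0.289).

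Hmox1 opens heme to release iron, carbon monoxide and biliverdin, and is known to respond to heme, oxidants and heavy metals, zinc being present in every culture here. It stood at 11.77, 11.66 and 10.98 in Ind-8, at 9.54, 9.11 and 8.98 in Con-3, and at 10.24 and 10.04 in tI-3. The 3 lines did not overlap: Ind-8 was highest, tI-3 intermediate and Con-3 lowest. The level was 11.47 ± 0.43 (SD, n = 3) in Ind-8, 10.14 ± 0.14 (SD, n = 2) in tI-3 and 9.21 ± 0.29 (SD, n = 3) in Con-3. Ind-8 was 4.77-fold above Con-3, a log2 difference of 2.25 with a limma SE of 0.20, and 2.14 without Con-3 replicate 3. It was 2.51-fold above tI-3, a log2 difference of 1.33 with an SE of 0.23. Like those of Tfrc, these differences chose the gene and carry no test.

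Hmox1 also rose in tI-3 against Con-3, by 0.93 on the log2 scale (1.9-fold; 95% interval 0.42 to 1.43, limma adjusted p = 0.0137), with both tI-3 arrays above all 3 of Con-3. The same arrays chose the gene, so this p is no independent test. Without Con-3 replicate 3 the difference was 0.81 (adjusted p = 0.0414). The call was lost without tI-3 replicate 1 (0.83, adjusted p = 0.0922) and without tI-3 replicate 2 (1.03, adjusted p = 0.0552), when the lone tI-3 array was assumed to vary like the other lines. Over all alternatives the adjusted p ran from 0.00301 to 0.0922. The tI-3 mean of Tfrc thus lay beside that of Con-3, and the tI-3 mean of Hmox1 lay between those of Con-3 and Ind-8.

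Counted over the 7 profiles, limma (adjusted p under 0.05) called 2 between Ind-8 and Con-3, Tfrc lower and Hmox1 higher, where it called 21.9% of all 22523 probe sets. The rank product test called the same 2 profiles at an estimated share of false positives under 0.05, where it called 3.65% of probe sets. Between Ind-8 and tI-3, limma called 3, Tfrc lower and Aco1 and Hmox1 higher, where it called 31.1% of probe sets. The rank product test called Tfrc and Hmox1 there, where it called 2.02% of probe sets. Both comparisons chose the genes, and nothing is read from these counts. Between tI-3 and Con-3, limma called 3, Slc11a2 (first profile) and Aco1 lower and Hmox1 higher, where it called 25.4% of probe sets. The rank product test called 0 of 7 there, where it called 2.31% of probe sets, and at an unadjusted p under 0.05 it counted 1, Hmox1. Nothing is read from the Hmox1 calls there either.

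A wider list of 88 further iron genes was sorted by role, and 80 of them had a probe set, 71 with a mean above the 25th percentile. Ftl2, Ncoa4, Hephl1, Bmp6, Fam132b, Iscu, Isca1 and Isca2 had none. Between Ind-8 and Con-3, limma called 23 of the 80 (28.8%), 13 higher and 10 lower, where it called 10.9% of all probe sets as higher and 11% as lower. The median difference of the list was −0.04 and its median size 0.19, beside −0.06 and 0.16 over all probe sets. Between Ind-8 and tI-3 it called 24 (30%), 15 higher and 9 lower, beside 15.6% and 15.5% of all probe sets. The median there was 0.07 and the median size 0.20, beside −0.06 and 0.24 over all probe sets. Between tI-3 and Con-3 it called 32 (40%), 13 higher and 19 lower, beside 10.2% and 15.1% of all probe sets. The median there was −0.05 and the median size 0.26, beside 0.04 and 0.205. The list leans to brighter probe sets than the whole array. Among probe sets above the 25th percentile, limma called 24 of 71 genes (33.8%) between Ind-8 and Con-3, 22 (31%) between Ind-8 and tI-3 and 31 (43.7%) between tI-3 and Con-3, beside 30.2%, 39.4% and 34.1% of all such probe sets. No test compared the list with the other probe sets.

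In both comparisons with tI-3 the share of higher calls depended on scaling: with quantile normalization the split was 10 higher and 12 lower between Ind-8 and tI-3 (12.1% and 13.3% of all probe sets), and 17 higher and 14 lower between tI-3 and Con-3 (11.3% and 12.4% of all probe sets). With the hybridization controls as a covariate, 4 of the 80 (5%) were called between Ind-8 and tI-3, where 4.5% of all probe sets were called, a drop that the whole array shared. Leaving out 1 array moved the counts most without Ind-8 replicate 2 (15 between Ind-8 and Con-3, beside 15.5% of all probe sets) and without tI-3 replicate 2 (11 between Ind-8 and tI-3, beside 12.3%, and 19 between tI-3 and Con-3, beside 13.7%). Without Con-3 replicate 3, 20 genes were called between Ind-8 and Con-3, beside 16.2% of all probe sets, and 27 between tI-3 and Con-3, beside 23.7%.

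**Figure D3:**
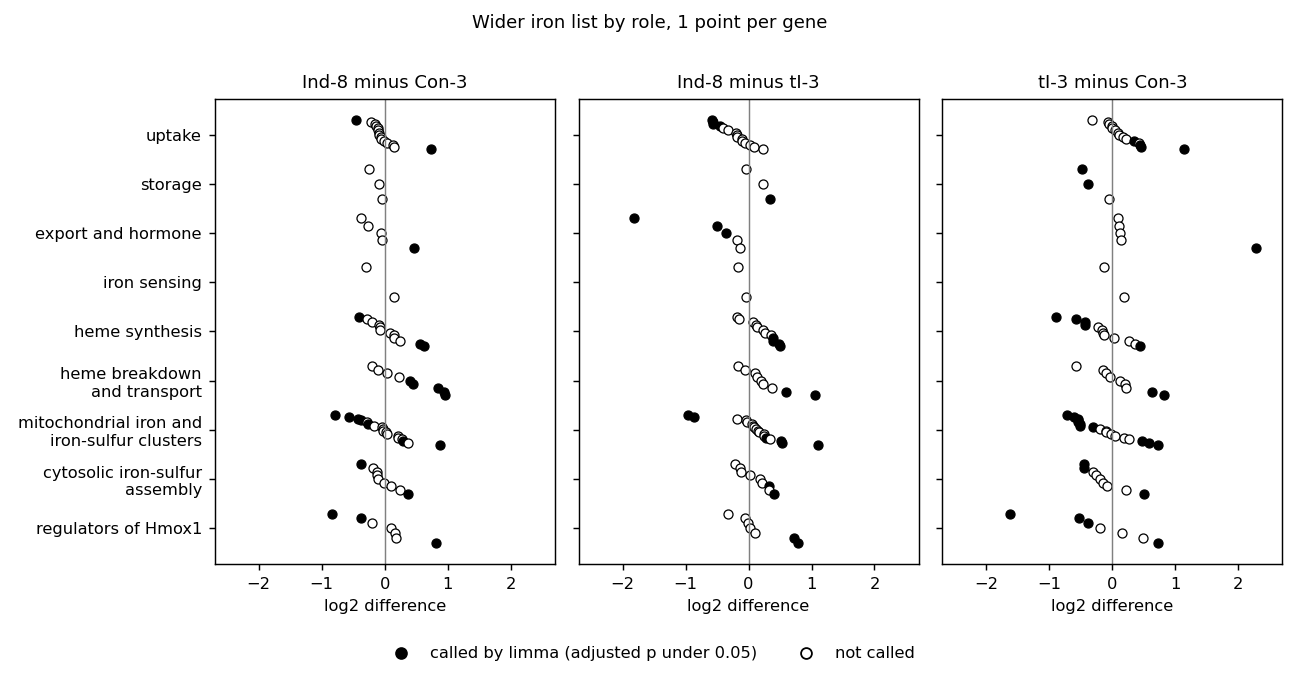
Log2 difference (horizontal axis) of each of the 80 genes of the wider iron list, by role (vertical axis), in the 3 comparisons; filled points were called by limma at an adjusted p under 0.05 and open points were not. Called points lie on both sides of 0 in each comparison, and the points farthest out are Cp at −1.82 and 2.29 and Bach2 at −1.62.

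The genes called in each role were picked for naming once their values had been seen. Of 15 uptake genes, limma called 2 (13.3%) between Ind-8 and Con-3, and 4 (26.7%) in each comparison with tI-3. Of all probe sets it called 21.9% between Ind-8 and Con-3, 31.1% between Ind-8 and tI-3 and 25.4% between tI-3 and Con-3. Steap3 was higher and Hfe lower in Ind-8 than in Con-3. Trf, Tfr2, Hfe and Lcn2 were lower in Ind-8 than in tI-3, and Tfr2, Steap2, Steap3 and Lcn2 were higher in tI-3 than in Con-3. Hfe and Lcn2 stood below 4.30, the 25th percentile, on every array, at the dim end where Slc40a1 lies and where tI-3 arrays read highest, so their calls rest on little signal. Tfr2 stood near or below that percentile in Ind-8 and Con-3 and clearly above it only in tI-3. Its calls are therefore set against little signal as well. Of 3 storage genes, 0, 1 and 2 were called in the same order of comparisons, beside the same shares of all probe sets. The iron chaperones Pcbp1 and Pcbp2 were lower in tI-3 than in Con-3, and Pcbp1 was higher in Ind-8 than in tI-3. Of 5 export and hormone genes, 1, 3 and 1 were called in that order, beside the same shares. Cp was higher in Ind-8 than in Con-3 and higher in tI-3 than in Con-3. Cp, Hamp2 and Tmprss6 were lower in Ind-8 than in tI-3 (the Tmprss6 difference turned sign with the hybridization covariate).

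Of 12 heme synthesis genes, limma called 3 (25%), 4 (33.3%) and 5 (41.7%) in the same order of comparisons. Of all probe sets it called 21.9%, 31.1% and 25.4%. Alas1 and Uros were higher and Alad lower in Ind-8 than in Con-3. Alad, Urod, Ppox and Abcb6 were higher in Ind-8 than in tI-3, and in tI-3 against Con-3 Alas1 was higher and Alad, Ppox and Abcb10 were among those lower. Of 9 genes of heme breakdown and transport, the group of Hmox1 itself, 5 were called between Ind-8 and Con-3, and these were all higher in Ind-8: Hmox2, Blvrb, Slc48a1, Abcg2 and Hebp1. Limma called 21.9% of all probe sets there, 10.9% as higher, and no test compared a role with them. Of the 9 genes, 8 had a mean above the 25th percentile. In a fit of such probe sets alone, limma called 30.2% there, 15.1% as higher. Abcg2 and Hebp1 were also higher in Ind-8 than in tI-3, and Blvrb and Slc48a1 were higher in tI-3 than in Con-3. These were 22.2% of the role in each comparison, beside 31.1% and 25.4% of all probe sets.

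Of 18 genes of mitochondrial iron and iron-sulfur clusters, 7 (38.9%) were called between Ind-8 and Con-3, 6 (33.3%) between Ind-8 and tI-3 and 11 (61.1%), 8 of them lower, between tI-3 and Con-3, beside 21.9%, 31.1% and 25.4% of all probe sets. All 18 had a mean above the 25th percentile, as did the cytosolic assembly genes and the regulators of Hmox1 described next. In a fit of probe sets above that percentile alone, limma called 30.2%, 39.4% and 34.1% of them. Those called between Ind-8 and Con-3 included Slc25a37, which was higher in Ind-8, and Slc25a28, Glrx5, Hspa9 and Cisd2, which were lower. Between Ind-8 and tI-3, Glrx5, Nfu1, Bola3 and Cisd1 were higher and Hspa9 was among those lower. Between tI-3 and Con-3, Slc25a37 was among those higher in tI-3, and Glrx5, Nfu1, Cisd1 and Cisd2 were among those lower. Of 9 cytosolic iron-sulfur assembly genes, 2 were called between Ind-8 and Con-3 (Nubp1 higher, Ciapin1 lower), 2 between Ind-8 and tI-3 (Nubp2 and Ndor1 higher) and 3 between tI-3 and Con-3 (Nubp1 higher, Nubp2 and Fam96b lower), beside the same shares of all probe sets. Of 7 regulators of Hmox1, 3 (42.9%), 2 (28.6%) and 4 (57.1%) were called in the same order of comparisons, beside the same shares of all probe sets. Bach1, Keap1 and Mafk were called in none of these. Nfe2l2, which activates Hmox1, was higher in Ind-8 and in tI-3 than in Con-3. Bach2 and Mafg were lower in both than in Con-3, Maff was lower in tI-3 than in Con-3, and Bach2 and Maff were higher in Ind-8 than in tI-3.

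Several of these calls with tI-3 were lost when the arrays were quantile-normalized again. Between Ind-8 and tI-3 these were Trf, Hfe, Pcbp1, Urod, Abcb6, Glrx5 and Nubp2, and between tI-3 and Con-3 they were Tfr2, Lcn2, Abcb10, Bola3, Fam96b, Maff and Mafg. Genes newly called between Ind-8 and tI-3 included Steap2, Steap3, Blvra and Ciao1, and 6 genes were newly called between tI-3 and Con-3. Median centring ended the call of Steap2 between tI-3 and Con-3. With the hybridization covariate, the genes that limma still called between Ind-8 and tI-3 included Cp, Nfu1 and Hspa9. In the comparison of Ind-8 with Con-3 the same covariate ended calls that included those of Cp, Alad, Hmox2, Glrx5, Ciapin1 and Mafg. It ended those of Tfr2, Lcn2, Alas1, Abcb10, Bola3, Fam96b, Maff and Mafg between tI-3 and Con-3.

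In at least 1 comparison, limma called 45 genes of the list (56.2%), beside 46.4% of all probe sets, and 5 (6.2%) had a called log2 difference of 1 or more, beside 5.8% of all probe sets. The largest called differences of the other 40 ran from 0.35 to 0.97 in size. Cp, the ferroxidase that loads iron onto transferrin, stood at 4.79, 5.14 and 4.77 in Ind-8, 4.67, 4.28 and 4.35 in Con-3, and 6.82 and 6.62 in tI-3. Both tI-3 arrays were far above the others. Con-3 replicates 2 and 3 stood near or below the 25th percentile, where an array shows little signal over background. The differences of Cp from Con-3 are therefore set against little signal, and their exact sizes are uncertain. Cp was higher in tI-3 than in Con-3 by 2.29 (SE 0.15, limma adjusted p = 9.45e-06) and fell by 1.82 in Ind-8 against tI-3 (SE 0.15, limma adjusted p = 5.24e-05). The first of these was 2.24 without Con-3 replicate 3. Its 0.47 between Ind-8 and Con-3 (limma adjusted p = 0.0321) was no longer called with the hybridization covariate (0.35) or without Ind-8 replicate 2 (0.35), Con-3 replicate 2 (0.39) or Con-3 replicate 3 (0.43), with adjusted p from 0.0145 to 0.178 over all alternatives.

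Bach2, a repressor that competes with activators at heme oxygenase genes, stood at 5.81, 5.94 and 6.05 in Ind-8, 7.03, 6.77 and 6.50 in Con-3, and 5.04 and 5.26 in tI-3. The lines did not overlap, with Con-3 highest and tI-3 lowest. It fell by 1.62 in tI-3 against Con-3 (SE 0.15, limma adjusted p = 7.65e-05) and by 0.84 in Ind-8 against Con-3 (SE 0.14, limma adjusted p = 0.00183). These differences were −1.76 and −0.97 without Con-3 replicate 3. Its 0.78 of Ind-8 minus tI-3 (limma adjusted p = 0.00444) became 0.48 and was not called with the hybridization covariate, in a range of adjusted p from 0.00229 to 0.256.

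Steap3, which reduces ferric iron in the endosome, stood at 7.08, 7.56 and 7.17 in Ind-8, 6.61, 6.56 and 6.45 in Con-3, and 7.51 and 7.84 in tI-3. Con-3 was below all other arrays, and Ind-8 and tI-3 overlapped. It rose by 1.13 in tI-3 (SE 0.15, limma adjusted p = 0.000558) and by 0.73 in Ind-8 (SE 0.14, limma adjusted p = 0.00408) against Con-3, or by 1.09 and 0.69 without Con-3 replicate 3. Ind-8 minus tI-3 was −0.40 (limma adjusted p = 0.0662), and was called without Ind-8 replicate 2 (−0.55) and with quantile normalization (−0.58), while it fell to −0.24 without tI-3 replicate 2 (adjusted p = 0.407), in a range of adjusted p from 0.0196 to 0.407.

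Nfu1, a carrier of iron-sulfur clusters in mitochondria, stood at 9.50, 9.80 and 9.98 in Ind-8, 9.31, 9.45 and 9.41 in Con-3, and 8.72 and 8.60 in tI-3. The lines did not overlap, with Ind-8 highest and tI-3 lowest. It was higher in Ind-8 than in tI-3 by 1.10 (SE 0.14, limma adjusted p = 0.000418) and fell by 0.73 in tI-3 against Con-3 (SE 0.14, limma adjusted p = 0.00336), a difference of −0.72 without Con-3 replicate 3. Ind-8 minus Con-3 was 0.37 (limma adjusted p = 0.0514), 0.385 without Con-3 replicate 3, and was called without Ind-8 replicate 1 (0.50), with the replicate block (adjusted p = 0.0398), with the intensity trend and among probe sets above the 25th percentile, in a range of adjusted p from 0.0112 to 0.165.

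Hebp1, a cytosolic protein that binds heme, stood at 9.19, 9.44 and 9.11 in Ind-8, 8.31, 8.46 and 8.13 in Con-3, and 8.29 and 8.09 in tI-3. Ind-8 was above all other arrays, and Con-3 and tI-3 overlapped. It was higher in Ind-8 by 0.95 than in Con-3 (SE 0.12, limma adjusted p = 0.000517) and by 1.06 than in tI-3 (SE 0.13, limma adjusted p = 0.000513). The second call was lost with the hybridization covariate (0.77), in a range of adjusted p from 0.000255 to 0.0546. Hebp1 differed by −0.11 between tI-3 and Con-3 (limma adjusted p = 0.615). That difference turned to 0.03 with quantile normalization and 0.05 with the hybridization covariate, and was −0.01 without tI-3 replicate 2. Its differences from Con-3 without replicate 3 were 0.86 in Ind-8 and −0.19 in tI-3.

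The rank product test called Slc48a1 and Hebp1 higher and Hspa9 and Bach2 lower in Ind-8 than in Con-3, 4 of the 80 (5%), beside 3.65% of all probe sets. With any 1 of those arrays left out it called 0 or 1, among them 0 without Con-3 replicate 3, where limma called 20. Over all probe sets its calls fell to between 1.61% and 2.06% in these fits (1.97% without Con-3 replicate 3). It called Cp alone (1.25%, beside 2.02% of all probe sets) as lower in Ind-8 than in tI-3, and 0 without either tI-3 array, where it called 0.79% and 0.71% of all probe sets. Between tI-3 and Con-3 it called Cp higher and Bach2 lower in tI-3 (2.5%, beside 2.31% of all probe sets), and 1 gene without Con-3 replicate 1 or 2 or without either tI-3 array, where it called 0.81% to 0.96% of all probe sets. Of the wider list, Slc48a1, Hebp1, Bach2, Hspa9 and Cp are also among the genes the study called on these arrays, so their differences of Ind-8 from the other lines are not independent evidence.

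**Figure D4:**
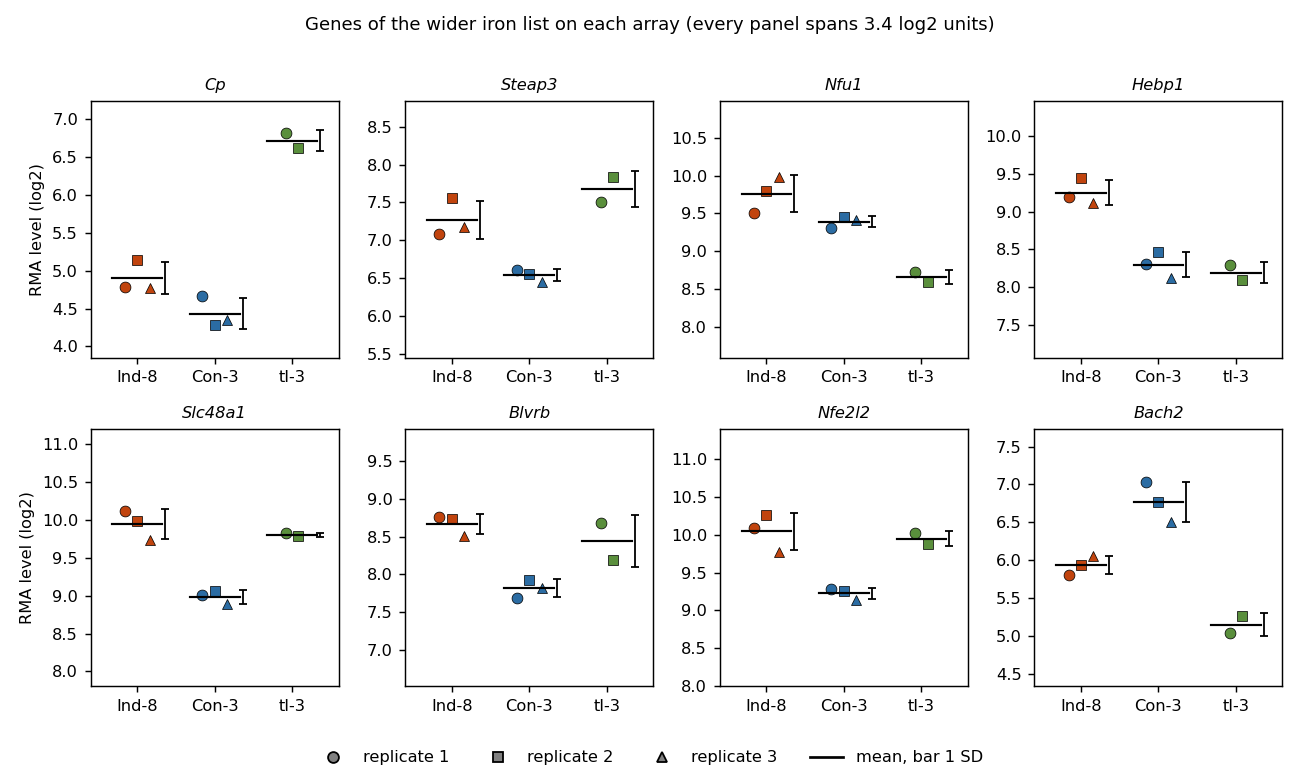
Log2 level (vertical axis, each panel spanning 3.4 log2 units) of 8 genes of the wider list in Ind-8, Con-3 and tI-3; symbols are arrays by replicate number, lines are means and bars are 1 SD, and Slc48a1, Blvrb and Nfe2l2 were picked after their values were seen. Cp lies at 6.62 and 6.82 in tI-3 and at 4.28 to 5.14 elsewhere, and Hebp1 lies at 9.11 to 9.44 in Ind-8 and at 8.09 to 8.46 elsewhere.

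The named genes whose levels followed Tfrc most closely over the 8 arrays, among genes with a mean above the 25th percentile, were Ptdss1 (Pearson r 0.989), Cpd (0.976), Ska2 (0.971), Ncapg (0.967) and Cenpe (0.966). Like Tfrc, all 5 were lower on every Ind-8 array than on any other, with Ptdss1 at 8.89 to 9.05 in Ind-8 and 9.17 to 9.39 elsewhere. For Hmox1 the closest were Ecm1 (0.995), Canx (0.991), Commd3 (0.990), Parp3 (0.990) and Fndc3c1 (0.989). Commd3 stood at 11.08, 11.18 and 10.84 in Ind-8, 9.41, 9.28 and 9.19 in Con-3, and 10.06 and 9.89 in tI-3, again with tI-3 between the others. The arrays fall into 3 lines, so the points behind each correlation are not independent. These genes were chosen by their correlation over the same arrays, so their likeness to Tfrc or Hmox1 follows from the choice.

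**Figure D5:**
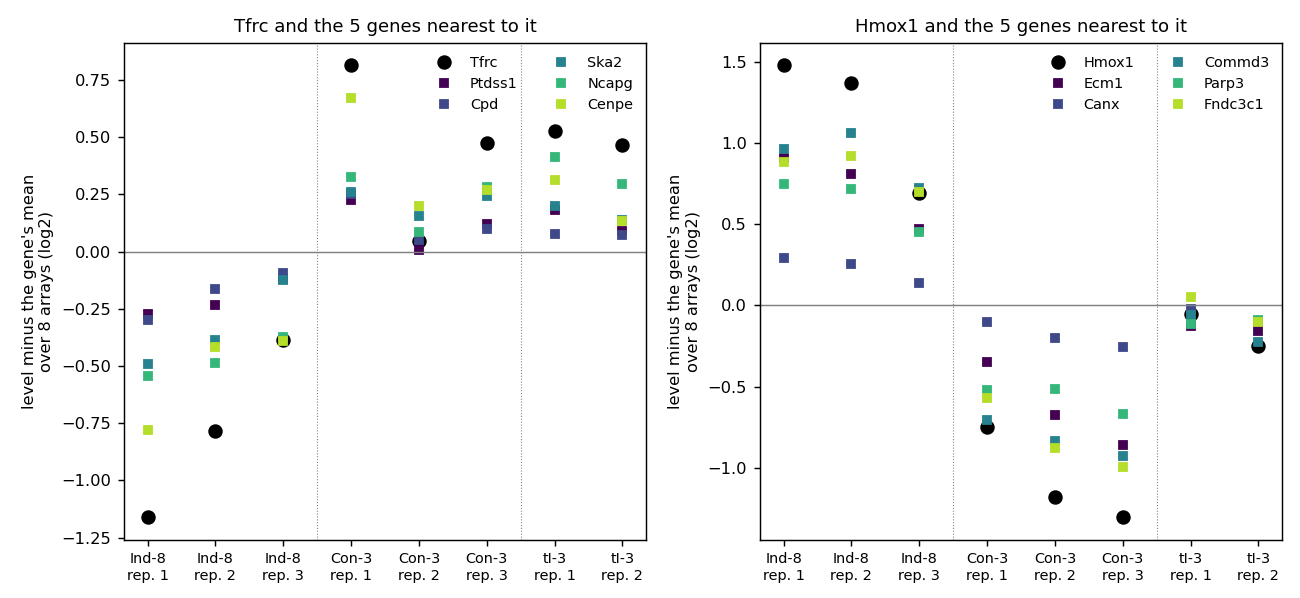
Level minus the gene's own mean over 8 arrays (vertical axis, log2) on each array (horizontal axis, with dotted lines between the lines) for Tfrc, Hmox1 and the 5 genes with the highest Pearson r to each. The Tfrc group lies below 0 on all 3 Ind-8 arrays, and the Hmox1 group lies above 0 there and below 0 on all 3 Con-3 arrays.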

How the data were processed

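RNA of 8 cultures was read on Affymetrix mouse arrays. The authors ran RMA on probe sets regrouped by RefSeq transcript. The deposited log2 levels were used here without further normalization. Of 22587 probe sets, 64 controls were set aside. Names came from a RefSeq table (GRCm38.p6), which named 18294 probe sets (81.2%). Lines were fitted with limma 3.58.1 in R 4.3.3 on all 8 arrays (Benjamini-Hochberg over 22523 probe sets). The rank product test, with 100 permutations, was re-implemented in Python 3.11.15 with numpy 2.4.6 and pandas 2.3.3, and matplotlib 3.10.9 drew the figures. The limma fit and the rank product test were tried on simulated data, with no outcome reported here. An array has no depth, and the number of arrays limits the precision.

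The genes and lists were chosen with earlier results of these data known. Named genes are the 8 iron handling genes, genes of the wider list that limma called with a log2 difference of at least 1, the 5 nearest to Tfrc and to Hmox1 by Pearson r, and Trp53, Impdh2 and Cdkn1a. Other called genes of the wider list are named by role, without values, and were picked after their values were seen, as were Slc48a1, Blvrb and Nfe2l2 for a figure. The fibroblast markers given singly were also picked after their values were seen. A gene with several probe sets is counted by its brightest. Counts cover each whole list, and some single-gene results of the lists are not reported here. Alternatives were a replicate block, the compared lines only, an intensity trend, quantile normalization, median centring, probe sets above the 25th percentile, identical profiles counted once, the hybridization controls as a covariate, a stricter rank product threshold, another seed, and each array left out in turn.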

Additional observations from a re-analysis of the deposited data

How the results depend on the processing

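Of 415 values recomputed under the alternatives, 371 were counted as unchanged and 44 were not. A count was unchanged within a factor of 1.5. Differences of Ind-8 from another line were unchanged if they moved by less than the spread of replicates. For tI-3 minus Con-3 the side of the threshold had to stay, and a turned sign counted only where a fit was called. Several alternatives alter the test but not the log2 difference. Many differences of Ind-8 from another line therefore could not move, and the 371 does not measure robustness. Tfrc ranged from −1.42 to −1.03 between Ind-8 and Con-3 and from −1.47 to −1.08 between Ind-8 and tI-3 with 1 array left out, and from −0.15 to 0.23 between tI-3 and Con-3. Hmox1 ranged from 2.11 to 2.50, from 1.18 to 1.57 and from 0.81 to 1.09 in the same order, and the last lost its call without either tI-3 array (adjusted p up to 0.0922). With the hybridization controls as a covariate, Hmox1 between Ind-8 and tI-3 was 0.90, and limma called 4 genes of the wider list and 4.5% of all probe sets there. The cause was not tested.

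With 1 array left out, limma called 15 to 21 genes of the wider list between Ind-8 and Con-3, 11 to 24 between Ind-8 and tI-3, and 19 to 33 between tI-3 and Con-3, beside 15.5% to 20.6%, 12.3% to 32.2% and 13.7% to 25% of all probe sets. The rank product test called 0 to 1, 0 to 1 and 1 to 2, beside 1.61% to 2.06%, 0.58% to 0.79% and 0.75% to 0.96% of all probe sets. Between Ind-8 and Con-3 it called 0 at an estimated share of false positives under 0.01 (1.34% of all probe sets) and 2 among probe sets above the 25th percentile (3.71% of all such). In each fit with an array left out, the rank product calls over all probe sets were fewer than with all arrays.

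With the replicate number as a replicate block, limma called 25, 25 and 31 genes of the wider list, beside 23.9%, 37.0% and 28.3% of all probe sets. Residuals of same-numbered Ind-8 and Con-3 arrays correlated at 0.270, 0.029 and 0.381, and those of differently numbered ones at −0.408 to 0.117. Same-numbered tI-3 arrays correlated at 0.009 and −0.225 with Ind-8 and at 0.205 and 0.042 with Con-3. The main fit did not treat the numbers as pairing, and whether same-numbered arrays share a batch was not tested. Slc40a1 has no value among probe sets above the 25th percentile, being too dim. With a tI-3 array left out, the lone array was assumed to vary like the other lines.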
